A study of Homo sapiens with 12 samples.

Results

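The genes described here sense, take up and export sterols: SREBF1, SREBF2, INSIG1, NR1H2, NR1H3, MYLIP, SCARB1, ABCA1 and ABCG1. They were taken by symbol from the annotation of the array platform, with every probe set that carried only that symbol. Of these 9 genes 8 had a probe set, 28 in all, out of 19775 genes and 54675 probe sets of the whole array, and NR1H2 is not analysed here. Of the 28 probe sets 20 reached a log2 expression of 4 on at least 3 of the 12 arrays and were tested. The 8 others lay between 2.11 and 3.99 on all arrays and stand for no measurable expression.

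The arrays (Affymetrix HG-U133 Plus 2.0) measured messenger RNA of CCRF-CEM-C7H2, a glucocorticoid-sensitive human T-cell acute lymphoblastic leukemia (T-ALL) line. The cultures were given dexamethasone (100 nM), which is a synthetic glucocorticoid, or only its carrier (0.1% ethanol), and were sampled after 6 h and after 24 h. Each of the 4 groups (ethanol 6 h, dexamethasone 6 h, ethanol 24 h, dexamethasone 24 h) held 3 arrays from independent experiments, numbered 0, 1 and 3 at 6 h and 1, 2 and 3 at 24 h. All came from this single line, so the spread is that between experiments and not between leukemias, and 3 arrays a group limit the precision. The purpose of the series was to find primary microRNA transcripts that respond to a glucocorticoid, and both SREBF genes host a microRNA.

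Cells hold their cholesterol steady through a pair of opposed sensors. When membranes lack sterol, the SREBP factors made from SREBF1 and SREBF2 leave the endoplasmic reticulum, where INSIG proteins otherwise retain them, are cleaved, and turn on genes of lipid synthesis and uptake. When oxysterols accumulate, the liver X receptors encoded by NR1H2 and NR1H3 turn on the exporters ABCA1 and ABCG1 and also MYLIP, the ubiquitin ligase that removes the LDL receptor, while SCARB1 is the cell-surface receptor for high-density lipoprotein. Proliferating T cells are known to need the first pathway and to damp the second.

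The glucocorticoid response was present in all treated groups. The glucocorticoid receptor gene NR3C1 was higher by 1.94 ± 0.09 (log2, limma's standard error) at 6 h and by 1.95 ± 0.09 at 24 h, and the receptor's target FKBP5 was higher by 2.57 ± 0.12 and 3.13 ± 0.12. Of 20 T-lineage markers listed, 16 were tested, among them CD3D at 13.9 to 14.4 and LCK at 12.6 to 12.9, whereas CD2, CD28 and DNTT stayed below 4 on every array. None of the 8 myeloid, 6 hepatocyte, and 5 erythroid and platelet markers on the platform reached the limit for testing, so the defining markers of those cells were at background. Of 6 B-cell markers 2 were tested, CD79A at 9.78 to 11.8 and CD79B at 6.63 to 7.38, while MS4A1, PAX5, BLK and CD22 stayed below 4. Of 8 stromal and epithelial markers VIM, EPCAM (9.78 to 11.2), COL1A1 and KRT8 were tested, while COL1A2, DCN, LUM and KRT18 stayed below 4. At 24 h 7 T-lineage markers were higher with dexamethasone and 5 lower, 1 B-cell marker was higher, and 1 stromal or epithelial marker was higher and 1 lower. The summed log2 level of the B-cell list was 29.6 to 30.2 with dexamethasone against 27.9 to 28.3 with ethanol at 24 h, and that of the T-lineage list 166.3 to 169.2 against 166.5 to 167.7. The part of these shifts in the results was not tested. Control transcripts added during processing were themselves brighter with dexamethasone. The 24 poly-A spike probe sets were higher by 0.47 at 6 h and 0.34 at 24 h, and the 18 hybridization controls by 0.34 and 0.38. Set to either control, the median of all tested probe sets was -0.48 and -0.34 (spikes) or -0.35 and -0.38 (hybridization controls). The sign of a small rise therefore depends on the scale. Scan codes in the labels separate the dexamethasone from the ethanol arrays at 6 h, where code and treatment cannot be told apart, while all 24 h arrays share a single code.

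Falls prevailed at 24 h. Of the 20 tested probe sets 13 passed the test (limma, Benjamini-Hochberg adjusted p under 0.05 over 23265 probe sets), 10 lower and 3 higher, against 47.3% of all tested probe sets, 24.5% lower and 22.8% higher. The median log2 difference of the 20 was -0.37, against -0.01 over all tested probe sets. The 10 lower ones were all 4 of SCARB1, both of ABCG1, both of SREBF1 and 2 of SREBF2, and the 3 higher ones were 2 of INSIG1 and 1 of MYLIP. In 12 of these 13 the dexamethasone and ethanol arrays of 24 h did not overlap, the exception being SREBF1 1558875_at. This is description only, since the 13 had already passed the test and the share over all probe sets is not given. On the spike scale and on the hybridization scale the 10 lower ones still passed, SREBF2 242748_at joined them, and none of the 3 higher ones passed. These scales lower all 24 h differences alike, by 0.34 and 0.38, so falls could only grow there. The shares of all probe sets past the test on them are not given. Each of the 7 measurable genes was then represented by 1 probe set, the one with the highest mean. By this count 4 genes (SREBF1, SREBF2, SCARB1 and ABCG1) were lower and none higher. All 10 lower probe sets belong to these 4 genes. They make up 57.1% of the 7, near the 52.0% of 9947 genes that changed (28.1% lower, 23.9% higher). With the mean of each gene's tested probe sets instead, these 4 were again lower and INSIG1 passed as higher (0.34, limma adjusted p = 0.0249). In bulk cultures, fewer cells of a kind and less transcript per cell cannot be told apart.

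At 6 h only 2 of the 20 probe sets passed, ABCG1 204567_s_at lower and MYLIP 223129_x_at higher, against 6.20% of all (2.66% higher, 3.54% lower). With the experiment as a replicate block 5 passed, 3 higher and 2 lower. After scaling to the spikes 9 passed, all lower, but this scale put the median of all tested probe sets at -0.48. The shares of all probe sets past the test with the block or on that scale are not given. The change of the response between the times was tested by itself, and 6 of the 20 probe sets, or 30%, had a lower response at 24 h than at 6 h while none had a higher one, against 23.1% of all tested (11.7% lower, 11.4% higher). By genes, 2 of the 7 (SCARB1 and ABCG1) had a lower response at 24 h, against 27.1% of all genes in either direction, 14.8% lower and 12.3% higher. By the mean of each gene's probe sets, SREBF1 (-0.65, limma adjusted p = 0.0373) and SREBF2 (-0.45, adjusted p = 0.0184) also passed as lower.

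**Figure D1:**
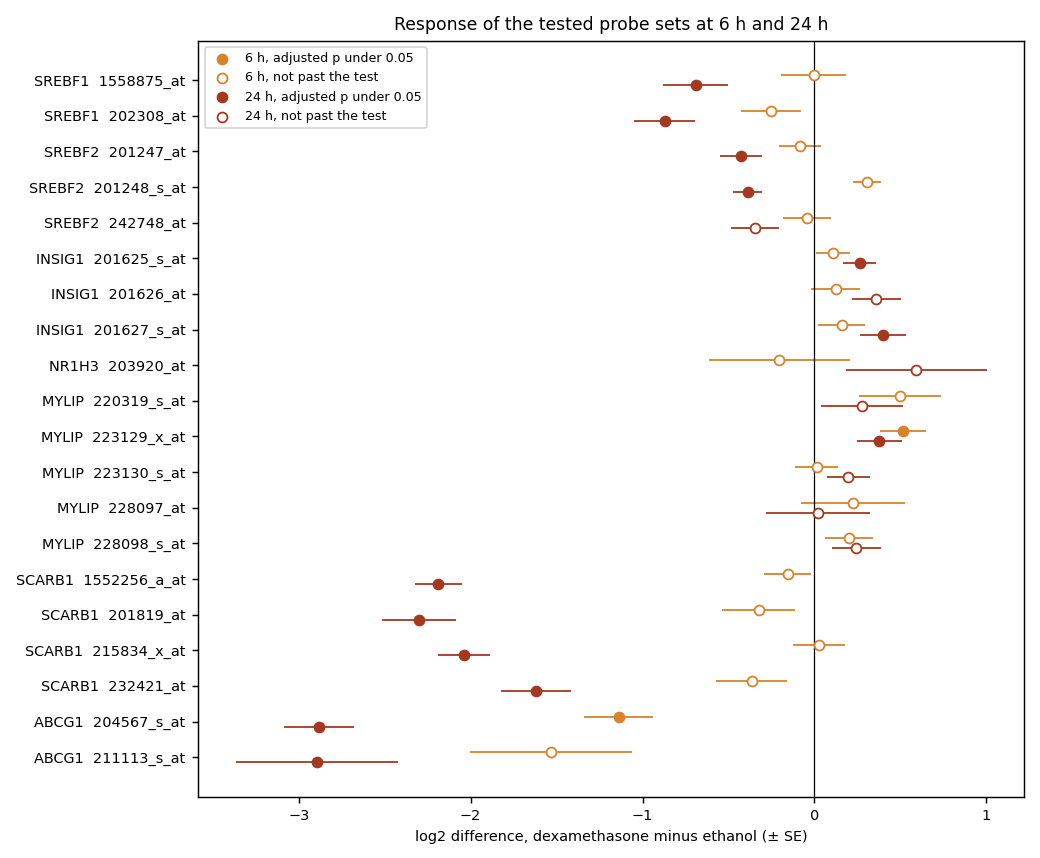
The log2 difference of dexamethasone minus ethanol (horizontal axis, bars are limma's standard errors, n = 3 arrays per group) is plotted for the 20 tested probe sets at 6 h and at 24 h, with filled points where the adjusted p was under 0.05. The SCARB1 probe sets sit near 0 at 6 h and between -1.62 and -2.30 at 24 h, and ABCG1 204567_s_at lies at -1.14 and then -2.88. INSIG1 and MYLIP stay right of 0 on this deposited scale. On the control scales some of their values fall below 0 and none passed as higher.

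SREBF1 makes the SREBP-1 factors, which chiefly drive fatty acid synthesis, and SREBF2 makes SREBP-2, which chiefly drives cholesterol synthesis and uptake. In the GRCh38.p14 RefSeq table SREBF1 spans chr17:17811334-17836986 on the minus strand and SREBF2 spans chr22:41833105-41907305 on the plus strand. Each span holds a miR-33 gene on the same strand, MIR33B at chr17:17813836-17813931 and MIR33A at chr22:41900944-41901012, so the host transcripts measured here are the candidate primary transcripts of these microRNAs. The mature 5p forms are shown because they are known repressors of ABCA1, the efflux gene of the same circuit, with their seed (bases 2 to 8) in capitals.
hsa-miR-33a-5p (within SREBF2): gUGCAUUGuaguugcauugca
hsa-miR-33b-5p (within SREBF1): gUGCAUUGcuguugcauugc
Both carry the seed UGCAUUG, which no other mature microRNA in the RefSeq table shares. The arrays measure the host messenger RNA and not the mature microRNAs.

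SREBF1 fell at 24 h. Probe set 202308_at read 7.72, 8.08 and 7.74 on the ethanol arrays of 6 h and 7.40, 7.75 and 7.63 on the dexamethasone arrays of 6 h. It read 8.57, 8.54 and 8.45 with ethanol at 24 h, the highest values of the 12 arrays, and 7.76, 7.96 and 7.22 with dexamethasone at 24 h. The 24 h groups were thus fully separated, and the treated arrays stood near the level of the 6 h controls. The difference was -0.87 ± 0.18 at 24 h (limma adjusted p = 0.00197, a 1.83-fold lower level) and -0.25 ± 0.18 at 6 h (adjusted p = 0.472). The change of the response between the times, -0.62 ± 0.25, did not pass (adjusted p = 0.101), but passed with the experiment as a replicate block (0.0338). The other SREBF1 probe set, 1558875_at, read 5.67, 6.03 and 5.48 with ethanol and 5.48, 4.76 and 4.87 with dexamethasone at 24 h, where the highest treated array met the lowest control. It differed by -0.69 ± 0.19 at 24 h (limma adjusted p = 0.0115) and by 0.00 at 6 h. Its 24 h call was lost without ethanol experiment 2, with an adjusted p of 0.0507.

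SREBF2 moved less. Probe set 201247_at read 8.45, 8.35 and 8.36 with ethanol and 8.06, 8.08 and 7.74 with dexamethasone at 24 h, a difference of -0.43 ± 0.12 (limma adjusted p = 0.0141), or 1.34-fold. Without dexamethasone experiment 3, the lowest array, the adjusted p was 0.0595. At 6 h the same probe set differed by -0.08 ± 0.12 and its groups overlapped.

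The tightest of the SREBF2 probe sets was 201248_s_at. It read 7.13, 7.13 and 6.90 with ethanol at 6 h against 7.30, 7.47 and 7.31 with dexamethasone at 6 h. At 24 h it read 7.34, 7.27 and 7.27 with ethanol against 6.92, 6.92 and 6.87 with dexamethasone. The treated arrays were therefore all above the controls at 6 h and all below them at 24 h. The 6 h difference of 0.31 ± 0.08 had a limma adjusted p of 0.0524 (0.0304 with the replicate block) and the 24 h difference of -0.39 ± 0.08 one of 0.00259. The change between the times, -0.70 ± 0.12, passed with an adjusted p of 0.00184, but not on the spike scale (0.0876) or the hybridization scale (0.193). On those scales the 6 h value itself was -0.16 and -0.03, and the 24 h fall was -0.73 and -0.77. The remaining SREBF2 probe set, 242748_at, differed by -0.35 ± 0.14 at 24 h (adjusted p = 0.0615, and 0.0198 with the replicate block).

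**Figure D2:**
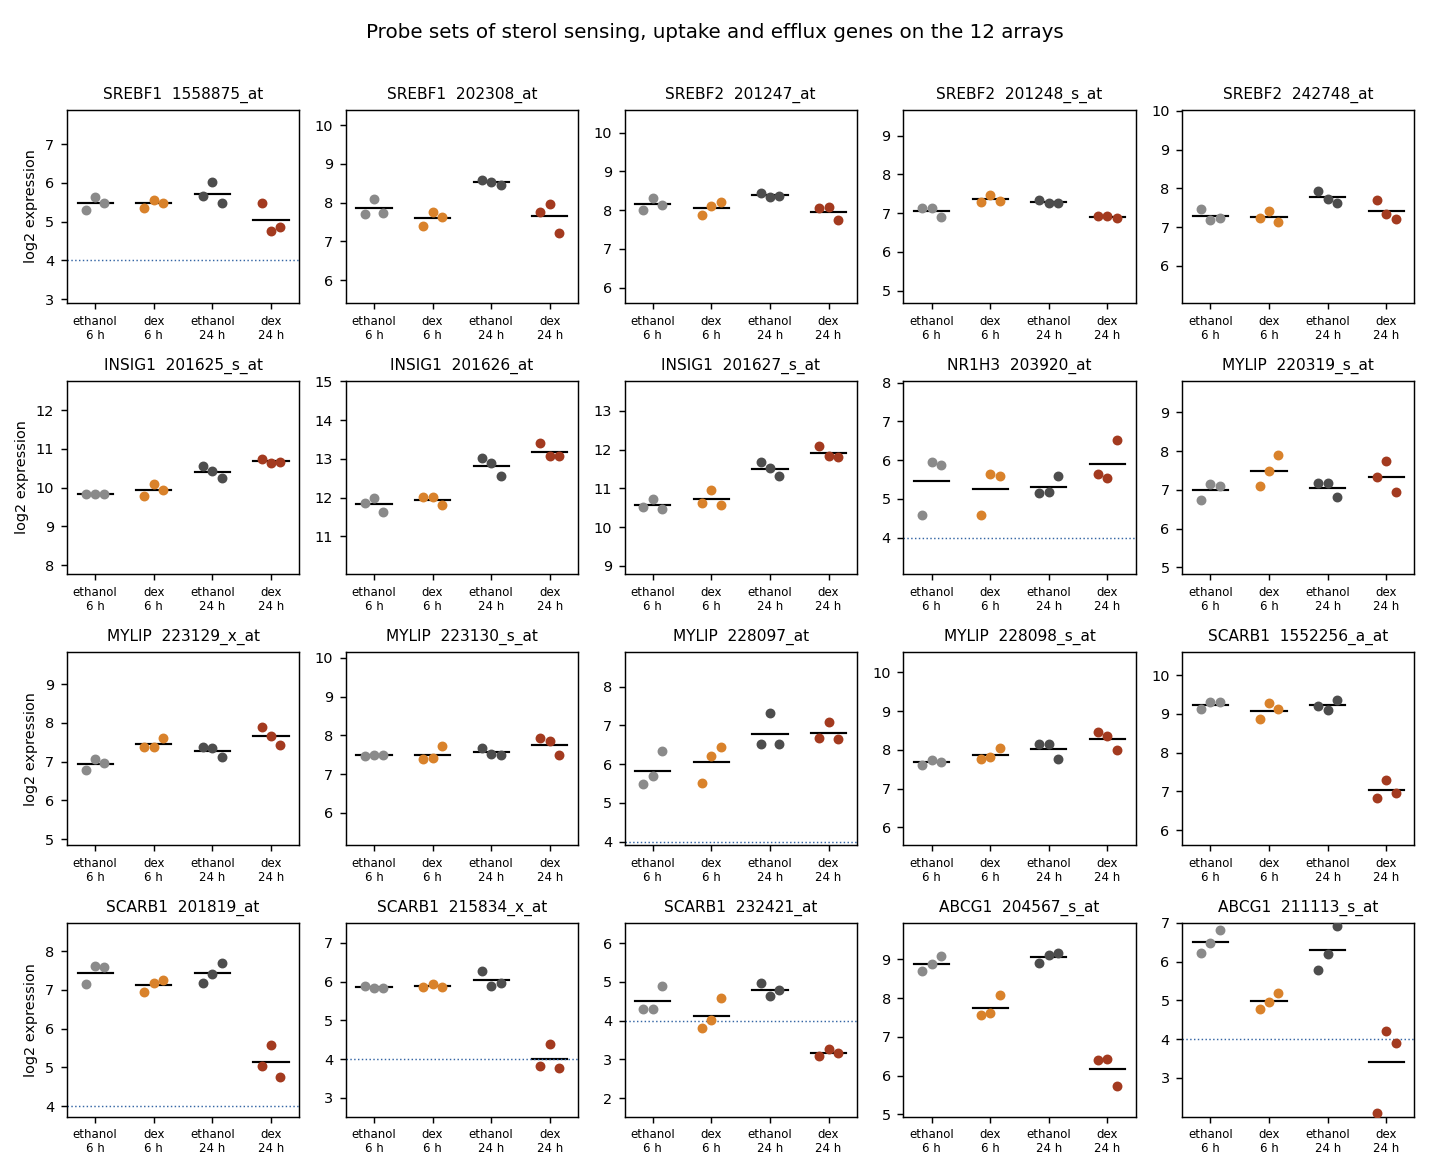
Each panel gives log2 expression (vertical axis, every panel spanning the same number of log2 units, dotted line at the limit of 4) of a tested probe set on the 12 arrays, by group and with experiments in numerical order from left to right, where points are arrays and bars are group means. The dexamethasone arrays of 24 h stand clearly apart for SCARB1 and ABCG1, where 204567_s_at reads 5.72 to 6.43 against 8.90 to 9.17 with ethanol, and the INSIG1 panels step up from 6 h to 24 h in both treatments.

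INSIG1 holds the SREBP precursors in the endoplasmic reticulum and is itself an SREBP target. It changed more with time in culture than with dexamethasone. Probe set 201626_at read 11.85, 11.99 and 11.63 with ethanol and 12.01, 12.01 and 11.82 with dexamethasone at 6 h. The ethanol arrays of 24 h read 13.03, 12.90 and 12.55 and the dexamethasone arrays 13.40, 13.08 and 13.08. All arrays of 24 h thus lay above all arrays of 6 h, and the treated arrays of 24 h lay above their controls by a narrow margin. Between the ethanol groups the rise from 6 h to 24 h was 1.00 ± 0.14 (limma adjusted p = 0.0191, 2.01-fold). The other INSIG1 probe sets rose by 0.94 ± 0.14 (201627_s_at, adjusted p = 0.0191) and 0.58 ± 0.10 (201625_s_at, adjusted p = 0.0326, and 0.0538 with the replicate block). These 3 were the only ones of the 20 probe sets past the test between the ethanol groups, where 0.486% of all passed (0.284% higher, 0.202% lower). As a gene, INSIG1 was the 1 of 7 to pass, against 0.432% of all genes, 0.201% higher and 0.231% lower.

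That comparison runs across scan codes, and the part of the code was not tested. Scaled to the spikes, the rise of 201626_at was 0.86 and no longer passed (adjusted p = 0.104), and on the hybridization scale it was 1.13. Without ethanol experiment 0 or 3 of 6 h, or ethanol experiment 1 or 2 of 24 h, none of the 3 INSIG1 probe sets passed, the highest adjusted p for 201626_at being 0.103.

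The effect of dexamethasone on INSIG1 depends on the scale. As deposited, the 24 h differences were 0.40 ± 0.14 for 201627_s_at (limma adjusted p = 0.0319), 0.26 ± 0.10 for 201625_s_at (adjusted p = 0.0465) and 0.36 ± 0.14 for 201626_at (adjusted p = 0.0596, and 0.00846 with the replicate block). On the spike scale they were 0.06, -0.075 and 0.02, and on the hybridization scale 0.02, -0.11 and -0.02, none past the test. Leaving out dexamethasone experiment 1, or ethanol experiment 2 or 3, of 24 h also ended the call of 201627_s_at. The call of 201625_s_at was kept in only 3 of the 12 fits that left out 1 array. At 6 h the 3 probe sets differed by 0.11 to 0.16 and did not pass. While the SREBF genes lay below the ethanol controls at 24 h, no INSIG1 probe set passed as lower in any setting tried.

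The stretch before 1 start site of each gene is shown for SREBF2, SREBF1 and INSIG1, since sterol feedback can act through promoters. The SREBF1 window lies before the outermost start of the gene, and any start inside it was not searched. Each line gives the 250 bases upstream in the sense direction (RefSeq, GRCh38.p14), with a matched motif in capitals. SREBF2 is chr22:41832855-41833104 on the plus strand, SREBF1 is chr17:17836987-17837236 on the minus strand and INSIG1 is chr7:155297628-155297877 on the plus strand.
SREBF2: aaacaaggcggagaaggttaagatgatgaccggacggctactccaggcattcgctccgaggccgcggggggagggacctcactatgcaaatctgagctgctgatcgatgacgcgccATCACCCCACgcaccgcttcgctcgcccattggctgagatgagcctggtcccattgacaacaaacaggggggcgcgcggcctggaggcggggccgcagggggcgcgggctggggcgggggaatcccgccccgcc
SREBF1: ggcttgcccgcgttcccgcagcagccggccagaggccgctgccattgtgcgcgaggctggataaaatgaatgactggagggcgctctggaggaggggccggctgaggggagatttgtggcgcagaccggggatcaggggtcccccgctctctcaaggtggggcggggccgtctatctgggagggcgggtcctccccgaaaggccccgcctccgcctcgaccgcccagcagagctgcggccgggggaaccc
INSIG1: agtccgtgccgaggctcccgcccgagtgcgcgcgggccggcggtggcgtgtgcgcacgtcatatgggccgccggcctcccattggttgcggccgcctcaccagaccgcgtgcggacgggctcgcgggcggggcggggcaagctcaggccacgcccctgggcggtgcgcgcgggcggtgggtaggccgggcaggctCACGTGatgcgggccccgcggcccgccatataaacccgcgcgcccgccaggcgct
A sterol regulatory element (SRE, searched on both strands with the sixth base left free) was found in SREBF2 as ATCACCCCAC, from -134 to -125 before the start, and in 44 of all 35116 promoter windows (0.125%). An E-box (CACGTG), which SREBPs can also bind, was found in INSIG1 from -55 to -50 and in 6.34% of all windows. The window of ABCA1, at chr9:104928156-104928405, held the same E-box from -147 to -142. Windows were at hand for 7 of the 9 genes, and those of SCARB1 and ABCG1 were not searched. Only exact letters were searched, so an element that departs from them would be missed. No window searched held the exact liver X receptor consensus (AGGTCA repeated after 4 free bases), which 0.0142% of all windows held. None held the exact glucocorticoid response element (AGAACA and TGTTCT around 3 free bases), against 0.00285%, or the hexamer AGAACA alone, against 12.4%. These matches describe letters only.

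NR1H3, the liver X receptor alpha gene (chr11:47248300-47269033), was measured by 203920_at at a low level with a wide spread. The probe set read 4.57, 5.95 and 5.88 with ethanol and 4.57, 5.64 and 5.58 with dexamethasone at 6 h, so experiment 0 was low in both treatments. At 24 h it read 5.14, 5.18 and 5.59 with ethanol and 5.63, 5.54 and 6.52 with dexamethasone. Each treated array of 24 h exceeded the control of its own experiment, although the groups overlapped. The difference was -0.20 ± 0.41 at 6 h (limma adjusted p = 0.844) and 0.59 ± 0.41 at 24 h (adjusted p = 0.261). With the experiment as a replicate block the 24 h difference passed (adjusted p = 0.00556), as did the change between the times of 0.80 (0.0133, and 0.365 without the block). The 24 h value was 0.26 on the spike scale and on the hybridization scale 0.22, and neither passed.

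MYLIP (chr6:16129086-16163887), a target of the liver X receptors, was read by 5 tested probe sets that disagreed. Only 223129_x_at passed, and its suffix marks probes that may also match other transcripts. It read 6.78, 7.07 and 6.96 with ethanol against 7.37, 7.37 and 7.61 with dexamethasone at 6 h, and 7.37, 7.37 and 7.12 against 7.90, 7.66 and 7.43 at 24 h. The treated arrays lay above the controls at both times without overlap, by 0.52 ± 0.13 (limma adjusted p = 0.0460) and 0.38 ± 0.13 (adjusted p = 0.0359).

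On the control scales these rises came to 0.05 and 0.04 (spikes) and to 0.18 and 0.00 (hybridization controls), none past the test. The 6 h call was kept in 2 of the 12 fits that left out 1 array, those without dexamethasone experiment 1 or 3 of 24 h, and the 24 h call in 7. The arrays whose loss ended the 24 h call were ethanol experiments 1, 2 and 3 and dexamethasone experiments 1 and 2 of 24 h. The 4 other probe sets of MYLIP differed by 0.01 to 0.50 at 6 h and by 0.02 to 0.28 at 24 h, and did not pass. With the replicate block 220319_s_at passed at 6 h (0.50, adjusted p = 0.0477) and 228098_s_at at 24 h (0.24, adjusted p = 0.0269).

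SCARB1 (chr12:124776856-124863864) fell steeply, and only by 24 h. The receptor binds high-density lipoprotein and lets cholesteryl ester pass into the cell, or free cholesterol pass either way. Probe set 1552256_a_at read 9.11, 9.29 and 9.31 with ethanol and 8.87, 9.27 and 9.11 with dexamethasone at 6 h, and the groups overlapped. At 24 h it read 9.19, 9.09 and 9.37 with ethanol and 6.83, 7.29 and 6.97 with dexamethasone. The treated arrays of 24 h thus stood more than a full log2 unit below every other array. The difference was -0.15 ± 0.14 at 6 h (limma adjusted p = 0.586) and -2.19 ± 0.14 at 24 h (adjusted p = 5.15e-07), a 4.55-fold lower level, 22.0% of the control. The response at 24 h was lower than that at 6 h by -2.03 ± 0.19 (adjusted p = 6.39e-05).

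The other SCARB1 probe sets told the same. On 201819_at the ethanol arrays of 24 h read 7.18, 7.40 and 7.70 and the dexamethasone arrays 5.03, 5.59 and 4.76, a difference of -2.30 ± 0.21 (limma adjusted p = 8.28e-06). For 215834_x_at, whose suffix again marks probes that may match other transcripts, the difference was -2.04 ± 0.15 (adjusted p = 1.70e-06). Its treated arrays of 24 h read 3.83, 4.38 and 3.77, so only 1 of the 3 measured a level above the limit of 4. On 232421_at, read at 4.96, 4.63 and 4.78 with ethanol, all 3 treated arrays of 24 h were below 4, and the fitted -1.62 ± 0.21 (adjusted p = 8.24e-05) amounts to a level at least 0.79 lower when measured against 4. At 6 h these 3 differed by -0.37 to 0.03 and did not pass. Their responses at 24 h were lower than at 6 h by -1.98, -2.07 and -1.25, all past the test. The 24 h calls of all 4 held in every setting in which they were tested, each left-out array included. They also held on the control scales, with values as low as -2.68 on the hybridization scale. Those scales lower every 24 h difference, so falls could only grow there. With spike scaling 3 of the 4 also passed at 6 h, 1552256_a_at at -0.62 among them (adjusted p = 0.00580). The fifth SCARB1 probe set, 215835_at, was at background on all arrays.

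ABCG1 (chr21:42199689-42297244) exports cholesterol to high-density lipoprotein and fell at both times. Probe set 204567_s_at read 8.69, 8.87 and 9.10 with ethanol and 7.55, 7.62 and 8.07 with dexamethasone at 6 h. At 24 h it read 8.90, 9.13 and 9.17 with ethanol and 6.40, 6.43 and 5.72 with dexamethasone. The ethanol groups lay together at both times, and the treated groups stepped down without overlap. The difference was -1.14 ± 0.20 at 6 h (limma adjusted p = 0.00784, 2.20-fold) and -2.88 ± 0.20 at 24 h (adjusted p = 1.13e-06, 7.37-fold, 13.6% of the control). The further fall from 6 h to 24 h, -1.74 ± 0.29, also passed (adjusted p = 0.00164). All 3 calls held in every setting tried. The control scales lower every 6 h and every 24 h difference, so the falls at each time could only grow there. Scan code and treatment coincide at 6 h, but not at 24 h.

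The second ABCG1 probe set, 211113_s_at, read 6.22, 6.49 and 6.82 with ethanol against 4.78, 4.95 and 5.20 with dexamethasone at 6 h. At 24 h the values were 5.78, 6.19 and 6.91 against 2.09, 4.21 and 3.90, so experiments 1 and 3 lay below the limit of 4 and only experiment 2 measured a level. Again no treated array reached its controls. The fitted 24 h difference was -2.89 ± 0.47 (limma adjusted p = 0.000480), with a treated mean of 3.40 that is itself below the limit, and without dexamethasone experiment 1 it was -2.24. At 6 h it was -1.53 ± 0.47, which did not pass (adjusted p = 0.0885, and 0.0186 with the replicate block), and the change between the times was -1.36 ± 0.67 (adjusted p = 0.175, and 0.0376 with the block). The probe sets 230913_at and 232081_at were at background throughout.

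ABCA1, the exporter that loads cholesterol onto lipid-poor apolipoprotein A-I (chr9:104781006-104928155), was not measurable. Its 4 probe sets stayed below 4 on all 12 arrays and were not tested. Probe set 203505_at came nearest: it read 2.76, 3.47 and 3.99 with dexamethasone at 24 h against 2.76, 2.76 and 2.58 with ethanol, while 203504_s_at read 3.08, 2.35 and 2.43 against 2.33, 2.32 and 2.28. The array that stood out was not the same on both, and no level above background can be given.

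**Figure D3:**
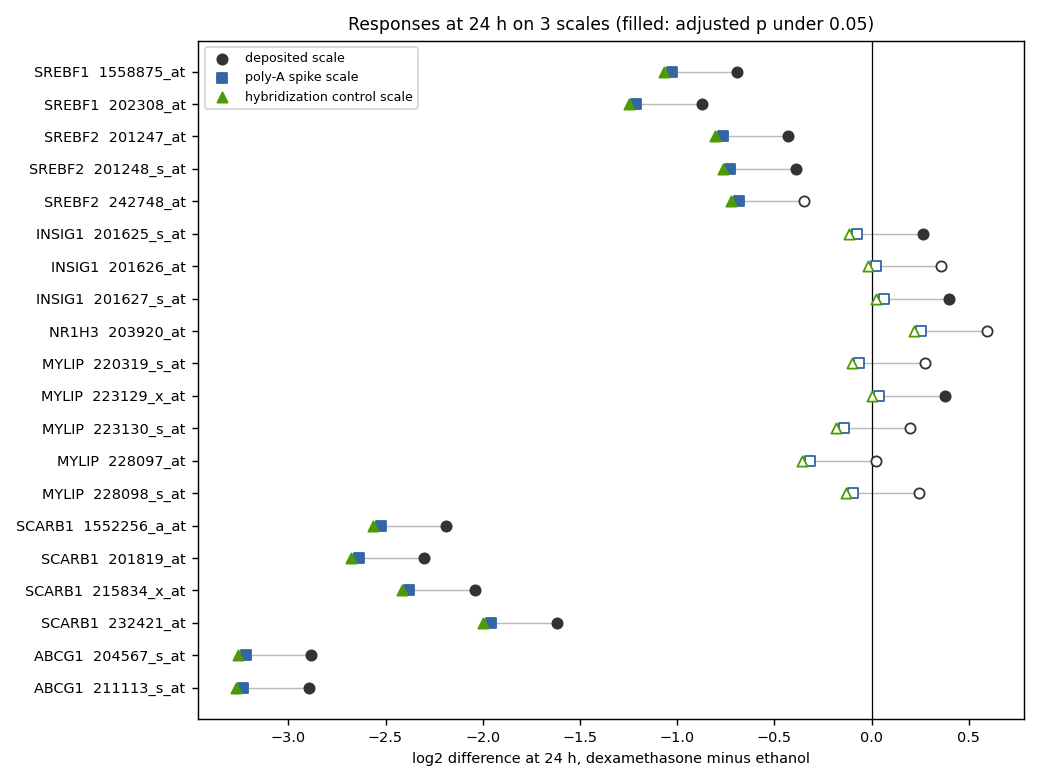
For the 20 tested probe sets the 24 h difference of dexamethasone minus ethanol (log2, horizontal axis) is given on the deposited scale, on the scale of the poly-A spikes and on that of the hybridization controls, filled where the adjusted p was under 0.05. SCARB1, ABCG1, SREBF1 and SREBF2 lie left of 0 on all 3 scales, while INSIG1 201627_s_at moves from 0.40 to 0.06 and 0.02.

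Around these genes, other parts of sterol handling were read from lists, with 1 probe set per gene, and compared with the 52.0% of all genes that changed at 24 h (23.9% higher, 28.1% lower, median -0.02). The lists were drawn up with earlier results of these data known, and no list was tested as a whole. Those shares hold for the deposited scale without a block. List counts with the replicate block, on a control scale or at an unadjusted p are description only, since their shares over all genes are not given. At 6 h between 0 and 2 genes of any list passed, against 6.49% of all genes (2.72% higher, 3.77% lower).

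Among 9 genes that escort, retain or cleave the SREBPs, 5 fell and 2 rose at 24 h (median -0.47). MBTPS2, the protease of the final cleavage, fell by 1.21 on the log2 scale (SE 0.10, limma adjusted p = 4.67e-06), and TMEM97, a sterol-binding membrane protein, differed by -1.09 ± 0.12. The escort SCAP, given for its role although outside the naming rule, differed by -0.47 ± 0.11 (adjusted p = 0.00550). INSIG2, the second retention protein, rose by 0.77 ± 0.09 (adjusted p = 3.56e-05), and still by 0.43 on the spike scale (adjusted p = 0.0321). The other rise was that of SPRING1 (0.43), named after its value was seen, which was 0.09 on the spike scale and did not pass. On the hybridization scale none of the 9 rose.

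Of 8 genes for the degradation of HMG-CoA reductase and INSIG, 1 rose and 2 fell at 24 h (median -0.03). The ubiquitin ligase RNF139 rose by 0.46 ± 0.07 (limma adjusted p = 0.000338), though on the spike scale the value was 0.12 and did not pass. The conjugating enzyme UBE2G2 differed by -0.54 ± 0.13 and AUP1, its recruiter, by -0.26 ± 0.08 (adjusted p = 0.0175, lost in 3 of the 12 fits that left out 1 array, at most 0.0631 without dexamethasone experiment 3 of 24 h). RNF145, a sterol-responsive ligase, was lower at 6 h by -0.33 ± 0.08 (adjusted p = 0.0312, lost in 5 of 12 fits that left out 1 array).

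SREBP targets fell more often than they rose. Of 16 tested genes of sterol synthesis 10 fell and 1 rose at 24 h (median -0.45), or 11 and 3 with the replicate block. LSS, which closes the sterol ring, differed by -1.18 ± 0.15 (limma adjusted p = 7.64e-05), DHCR7, a terminal reductase, by -1.07 ± 0.18 and SQLE, the epoxidase before LSS, by -0.71 ± 0.12. The single rise was MSMO1, a demethylating oxidase, at 1.03 ± 0.26 (adjusted p = 0.00666). Of 9 genes of fatty acid synthesis and handling 6 fell and 2 rose (median -0.92). FASN, the fatty acid synthase, differed by -1.58 ± 0.10 (adjusted p = 7.23e-07) and ACACA, which supplies its malonyl-CoA, by -1.07 ± 0.08. LPIN1, a phosphatidate phosphatase, rose by 1.00 ± 0.09 (adjusted p = 5.24e-06), and ACSS2 (0.58) was the other rise, named after its value was seen, which was 0.24 on the spike scale and did not pass (0.177).

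Of 5 tested lipoprotein receptors and adaptors 1 fell and 1 rose at 24 h (median -0.05), or 2 and 2 with the replicate block. The apolipoprotein E receptor gene LRP8 differed by -0.81 ± 0.09 (limma adjusted p = 4.27e-05) and the receptor chaperone LRPAP1 by 0.41 ± 0.09, which was 0.07 on the spike scale and did not pass. SCARB2, a lysosomal relative of SCARB1, differed by 0.65 ± 0.27 (adjusted p = 0.0655, and 0.0281 with the replicate block).

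Lysosomal and intracellular sterol transport went the other way on the deposited scale. Of 16 genes 9 rose and none fell at 24 h (median 0.34), and 9 had an unadjusted p below 0.05. Either control scale left 2 that rose and 3 that fell, but these scales put the median of all tested probe sets at -0.34 (spikes) and -0.38 (hybridization controls). With the replicate block 10 rose and 2 fell. The 3 with the smallest p were GRAMD2B, of the GRAM-domain family, NPC2, the soluble lysosomal cholesterol carrier, and OSBPL2, an oxysterol-binding relative. GRAMD2B is among the 9 rises counted, but whether it has a part in sterol transport was not tested. GRAMD2B rose by 2.26 ± 0.15 at 6 h (limma adjusted p = 9.77e-06) and by 3.79 ± 0.15 at 24 h (adjusted p = 1.84e-08). NPC2 rose by 1.18 ± 0.09 at 24 h (adjusted p = 2.08e-06) and by 0.84 on the spike scale (0.000507), while OSBPL2, at 0.71 ± 0.14, was 0.38 there and did not pass (0.0756).

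Of 7 tested partners and further targets of the liver X receptors 6 rose and 1 fell at 24 h (median 0.50), but only 1 rose on the spike scale and none on the hybridization scale. RXRA, a partner receptor, was the fall, at -1.07 ± 0.15 (limma adjusted p = 0.000158). It also passed on both control scales, where falls could only grow. RXRB, another partner receptor, named after its value was seen, rose by 0.50 ± 0.12 (limma adjusted p = 0.00607). On the spike scale its rise was 0.16 and did not pass (0.447). With ethanol at 24 h RXRB averaged 7.98 and RXRA 5.79. PLTP, which transfers phospholipids between lipoproteins, rose by 0.83 ± 0.16 (adjusted p = 0.00123, and 0.50 on the spike scale with 0.0130). PLIN2, a lipid droplet coat protein, rose by 0.53 ± 0.11 at 24 h and 0.42 ± 0.11 at 6 h (adjusted p = 0.0445), but lay at 0.19 and -0.05 on the spike scale. The 6 h call of PLIN2 was lost in 11 of the 12 fits that left out 1 array.

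Only 4 of 16 genes on the platform for esterification, oxysterol formation and further efflux were tested, and 2 rose at 24 h (median 0.25). CH25H, which makes 25-hydroxycholesterol, a ligand of the liver X receptors and of INSIG, averaged 2.56 ± 0.13 (SD, n = 3) with ethanol and 6.48 ± 0.73 with dexamethasone at 24 h. Since the controls were at background, its level was at least 2.48 higher on the log2 scale measured against 4 (limma adjusted p = 1.53e-05 for the fitted 3.92). The transporter ABCC1 differed by 0.40 ± 0.10 (adjusted p = 0.00637), which was 0.07 on the spike scale and did not pass. SOAT1, which esterifies cholesterol for storage, differed by -0.40 ± 0.19 and did not pass (adjusted p = 0.100), though it did with the replicate block (0.00373).

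**Figure D4:**
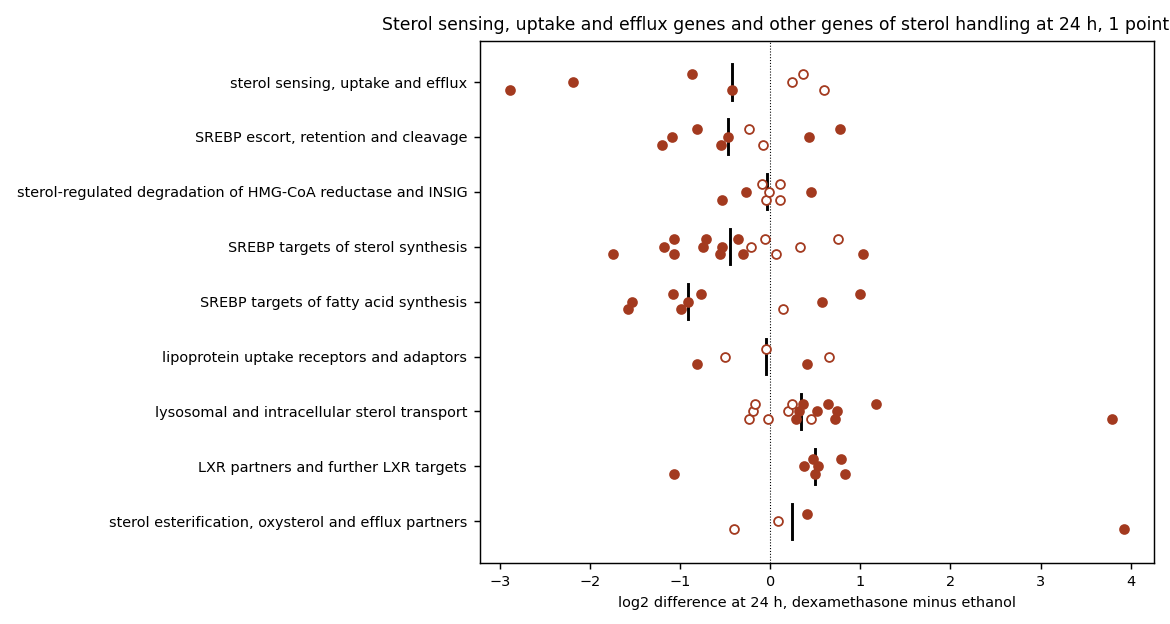
Each point is the 24 h log2 difference (horizontal axis) of a gene, by its probe set with the highest mean, for the genes described here and for 8 lists of further sterol genes, filled where the adjusted p was under 0.05, with the median as a bar. The lists of synthesis genes have medians of -0.45 and -0.92, while transport and liver X receptor lists lie at 0.34 and 0.50 on the deposited scale.

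The genes whose levels ran most like those described here were named by Pearson's r over the 12 arrays, among 9946 other genes. For SREBF2 the nearest gene was SREBF1 itself (r = 0.912), followed by SCD, the stearoyl-CoA desaturase (0.909). For INSIG1 they were LUZP1 (0.978) and MSMO1 (0.976), and for SREBF1 they were ANKRD28 (0.966) and GK6P (0.964). SCARB1 ran with IFRD2 (0.994) and BZW2 (0.994), and ABCG1 with INTS13 (0.989) and TENT5C (0.989). For NR1H3 the nearest were LINC01550 (0.927) and FAM120AOS (0.924), and for MYLIP they were NUDT6 (0.896) and PABPC1 (0.862). These values describe 12 arrays that share their groups, so any pair of genes that both moved at 24 h scores high.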

How the data were processed

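Total RNA of 12 cultures was hybridized, 1 array per culture. The values used are the log2 expression values per probe set that the authors deposited. GCRMA under R 2.6 had made them, according to the submitters' processing notes, with settings that are not given. Group means were modelled over the 12 arrays together in limma (version 3.58.1, R version 4.3.3), which left 8 residual degrees of freedom. Control probe sets were left out, and the test covered the 23265 probe sets that reached 4 on at least 3 arrays. Adjusted p-values follow Benjamini-Hochberg over these, with 0.05 as the threshold. Errors are limma's standard errors unless marked SD. Residuals of arrays with the same experiment number correlated at 0.238 to 0.627 within a time, and those of other pairs at 0.0500 or less, so the numbers pair the samples. The fit given first has no block. For the genes described here, block values stand where they change a call. For genes of the further lists only some of them are given.

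The genes and lists were chosen with earlier results of these data known. All 9 genes are named with every probe set, NR3C1, TSC22D3 and FKBP5 as checks (TSC22D3 rose from background by at least 7.49 at 6 h and 8.71 at 24 h, log2), per list the 3 genes with the smallest p at 24 h and the 1 at 6 h, and per gene the 2 most alike by r. The limma fit without a block was tested on simulated data with independent noise on each array. The pairing of experiments, the replicate block, the control scales, the gene means and the lists were not simulated. Scales, filters, variance models and left-out arrays were varied 1 at a time.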

Additional observations from a re-analysis of the deposited data

Results flagged for a closer look

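Responses that differed between 6 h and 24 h by limma's test of the difference itself are collected here, each as the 24 h minus the 6 h log2 response. SCARB1 gave -2.03 for 1552256_a_at, -1.98 for 201819_at, -2.07 for 215834_x_at and -1.25 for 232421_at. ABCG1 204567_s_at gave -1.74, with a fall already at 6 h. SREBF2 201248_s_at gave -0.70, with a 6 h difference of 0.31 that itself did not pass. The first 5 passed in every setting in which they were tested, and the last was lost on both control scales. All 6 hold the 6 h comparison, in which scan code and treatment cannot be told apart.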

How the results depend on the processing

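The 24 h count of 13 probe sets ranged from 9 to 17 over the alternatives (9 to 13 with 1 array left out) and the count of 6 for the change between the times from 4 to 9, both within 1.5 times. The count of 2 at 6 h was 5 with the replicate block, 1 with median centring, 9 on the poly-A spike scale and 1 with no filter, and 1 to 3 with 1 array left out. The count of 3 between the ethanol groups was 0 on the spike scale and 0 with only the 6 arrays of that comparison, where INSIG1 lost its calls, and 0 to 3 with 1 array left out. For the spike scale the direction turned for INSIG1 201625_s_at at 24 h (-0.075) and MYLIP 223130_s_at at 6 h (-0.45), and on the hybridization scale for INSIG1 201625_s_at at 24 h (-0.11). Of single values of these probe sets under the alternatives, 1456 kept their side of the threshold. Among these 1456, 59 changed sign while short of it. A further 71 lost and 34 gained a call, and 3 turned direction with a call in at least 1 of the settings compared. The replicate block changed no further call among the tested probe sets beyond those given with it. The cause of these changes was not tested. Values near a log2 of 4 are limited by the background, which touches ABCG1 211113_s_at and SCARB1 215834_x_at and 232421_at.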

Other observations

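Genes of sterol synthesis were higher in ethanol at 24 h than at 6 h by a median of 0.51 over 16 tested genes, against 0.00 over all genes. None of them passed the test (limma), against 0.432% of all genes. At an unadjusted p under 0.05 there were 10, and 4 passed with the replicate block. The shares of all genes for these last 2 counts are not given, so they are description only. MSMO1 stood at 1.33 ± 0.26 (limma adjusted p = 0.0572, and 0.00890 with the replicate block). HMGCS1 stood at 1.87 ± 0.40 (limma adjusted p = 0.0730, and 0.0129 with the block). STARD4, a sterol carrier and SREBP target, was the only gene of the sterol transport list past the test there, at 0.80 ± 0.12 (adjusted p = 0.0215), and on the spike scale it was 0.65 and did not pass (0.128). These were chosen after their values were seen, and the comparison crosses scan codes, whose part was not tested.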
